A study of Homo sapiens with 2 samples.

Results

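Rb occupancy was examined at the start sites of 9 genes for cohesin and condensin, the ring-shaped complexes that hold and fold chromosomes. The genes are SMC2, SMC4, NCAPD2, NCAPG, NCAPH and NCAPG2 for condensin, and SMC3, RAD21 and ESCO2 for cohesin. They were given as a list with a start site each on hg19, and a gene counted as having a peak where a summit lay within 3 kb of its start. This assigned 7 of the 9423 peaks of the VCaP library to 7 of the genes, and 12 of the 21994 peaks of the LNCaP library to all 9. VCaP and LNCaP are prostate cancer cell lines that express the androgen receptor, and each is represented by 1 library. Both lines, at passage 10 to 15, had spent 3 days in medium with 5% charcoal-stripped serum and then 4 h with 10 nM of the androgen dihydrotestosterone (DHT). All values below therefore come from DHT-treated cells, and cells without DHT, replicate cultures and input chromatin were not analysed here. A peak list carries no expression values, so the identity of the lines was not checked against marker genes.

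Condensin compacts chromosomes for mitosis and exists in a pair of forms. Both contain the ATPases SMC2 and SMC4. Condensin I adds NCAPH, NCAPD2 and NCAPG, and condensin II adds other subunits, among them NCAPG2. Cohesin holds sister chromatids together from S phase until anaphase and shapes chromatin loops in interphase. SMC3 is one of its ATPases, RAD21 is the kleisin subunit that closes the ring, and ESCO2 acetylates SMC3 during replication. Rb, the retinoblastoma protein, holds back transcription of cell cycle genes, in large part by binding E2F factors. Many genes that peak in mitosis carry a CHR element (cell cycle genes homology region) or CCAAT boxes bound by NF-Y near their start.

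To show the sequence at such start sites, the stretch just upstream of the start is given for 4 genes. NCAPG2 and NCAPG had the highest peaks, NCAPD2 had the lowest fold enrichment in VCaP, and SMC4 had 2 separate LNCaP peaks. The sequences are from RefSeq on GRCh38.p14 and read 5′ to 3′ along the gene up to the base before its first start. Capitals mark letters found by the motif search described next, and adjoining capitals can belong to overlapping motifs. NCAPG2 is shown for chr7:158704805-158704914 (minus strand), NCAPG for chr4:17810829-17810978, NCAPD2 for chr12:6493882-6494101 and SMC4 for chr3:160399500-160399649 (all plus strand).
NCAPG2: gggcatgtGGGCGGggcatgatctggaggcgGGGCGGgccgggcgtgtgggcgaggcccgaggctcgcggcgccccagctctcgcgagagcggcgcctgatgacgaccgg
NCAPG: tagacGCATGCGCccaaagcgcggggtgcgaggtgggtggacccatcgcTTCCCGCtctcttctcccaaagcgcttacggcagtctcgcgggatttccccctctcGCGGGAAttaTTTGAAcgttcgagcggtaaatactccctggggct
NCAPD2: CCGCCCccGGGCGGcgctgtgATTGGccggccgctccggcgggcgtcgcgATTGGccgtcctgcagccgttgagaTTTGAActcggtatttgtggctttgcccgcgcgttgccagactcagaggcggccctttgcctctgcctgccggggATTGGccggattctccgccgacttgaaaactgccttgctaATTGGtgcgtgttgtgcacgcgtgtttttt
SMC4: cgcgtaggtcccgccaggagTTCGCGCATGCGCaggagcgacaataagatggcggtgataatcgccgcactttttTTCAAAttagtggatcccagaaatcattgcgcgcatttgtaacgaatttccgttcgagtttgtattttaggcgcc

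The letters of the CHR element were present at 6 of the 7 promoters that could be searched. RefSeq windows of 250 bases before to 50 after the start matched 7 of the 9 genes, with 9 windows because SMC2 and SMC4 have 2 starts each. RAD21 and ESCO2 were not matched. TTTGAA, the CHR letters, read on either strand, occurred in 6 of the 9 windows and 6 of the 7 genes, all but NCAPH. It occurred in 15.2% of all 35116 windows of the table and in 12.4% of the 22198 windows of protein-coding genes. By gene, 15.9% of 15842 protein-coding genes had at least 1 such window. Its first base lay 35 bases before the start in NCAPG, 145 in NCAPD2, 75 in SMC4 and 151 in SMC3. In SMC2 it lay 3 bases before the first start, and in NCAPG2 it lay 35 bases past the start, outside the stretch printed above. None of the 9 windows held TTTCCCGC, TTTGGCGC, TTTCGCGC or TTTGCCGC, the E2F letters searched, which are rare in any case, at 3.31% of all windows. With only the last 7 of those letters, a search chosen after seeing the data, NCAPG and SMC4 had matches, or 2 of 9 windows against 13.0% of all. In SMC4 that match shares bases with the match to NRF1 letters.

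Other motifs differed between the genes. CCAAT, the NF-Y letters, occurred 4 times in NCAPD2, each time reversed as ATTGG, and 1 time in NCAPH. These were 2 of 9 windows, against 34.6% of all. GGGCGG, the SP1 letters, occurred 3 times in NCAPG2 and in 5 of 9 windows, against 45.0% of all and 56.3% of protein-coding windows. GCGCATGC, part of the NRF1 site, was found in NCAPG and SMC4, or 2 of 9 windows, against 3.05% of all windows. A match describes the letters of a window and does not show a bound site. The windows are on GRCh38 and the peaks on hg19, so the summits were not placed on these sequences.

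Rb peaks sat close to the start sites, mostly across them. The 7 VCaP summits lay between 22 and 299 bp from the start, and 6 of the 7 peaks covered it. In LNCaP, 11 of the 12 summits lay within 500 bp of the start, the nearest at 4 bp in NCAPG and the farthest at 815 bp in NCAPD2. A LNCaP peak covered the start of 8 of the 9 genes. NCAPD2 was the exception in both libraries, with peaks that ended before the start. In the direction of transcription, 6 VCaP and 7 LNCaP summits lay upstream, and 1 and 5 lay downstream. The limit of 3 kb was thus not close to any member: the next peak beyond it was 6.04 kb from NCAPG in LNCaP, and in VCaP it was 23.5 kb from NCAPD2.

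**Figure D1:**
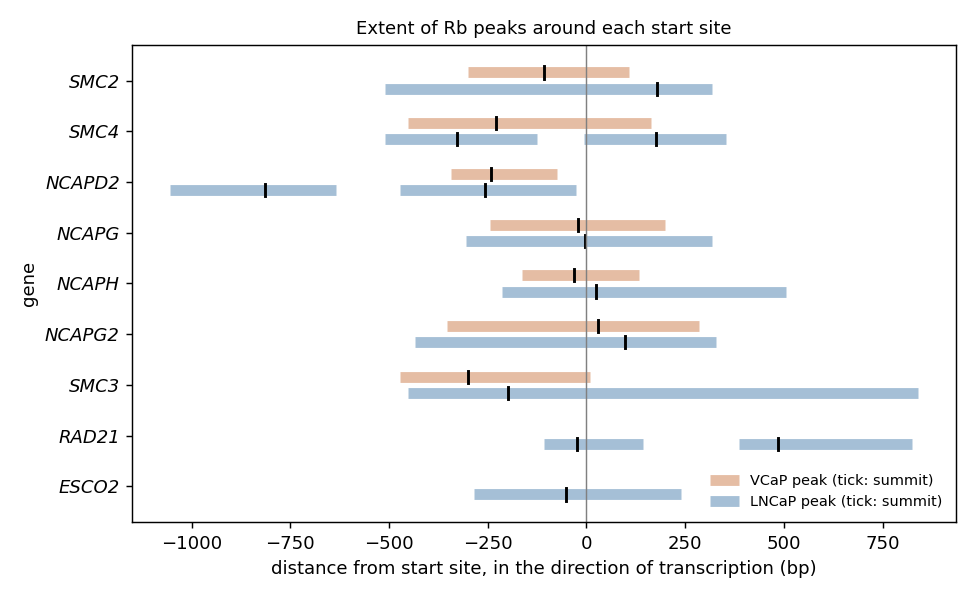
Extent of each Rb peak relative to the start site of its gene, in bp along the direction of transcription, for VCaP (orange, above) and LNCaP (blue, below); black ticks are summits. SMC4, NCAPD2 and RAD21 have 2 LNCaP peaks each, and RAD21 and ESCO2 have no VCaP peak.

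NCAPG2, a subunit of condensin II, had the highest summit pileup of the 9 genes in both libraries. The pileup is the number of extended sequence tags over the summit, and the fold enrichment is the ratio the peak caller formed with the tags around the peak in the same library. In VCaP the NCAPG2 peak (chr7:158497236-158497874) had a pileup of 51 tags (exact Poisson 95% interval 38.0 to 67.1) and a fold enrichment of 14.9. In LNCaP (chr7:158497192-158497953) the pileup was 73 tags (57.2 to 91.8) and the fold enrichment 15.6. By fold enrichment these peaks ranked 51 of 9423 and 120 of 21994, the top 0.541% and 0.546% of their lists. Of the 7 genes with a peak in both, NCAPG2 had one of the smallest differences in fold enrichment between the libraries. Intervals of pileups here and below cover counting error only, since each line has 1 library.

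NCAPG, the related subunit of condensin I, came next by pileup, with a larger difference in fold enrichment between the libraries. Its VCaP peak (chr4:17812281-17812723) had a pileup of 31 tags (21.1 to 44.0) and a fold enrichment of 9.91, rank 325. Its LNCaP peak (chr4:17812221-17812843) had 46 tags (33.7 to 61.4) and 16.1, rank 99 and the highest fold of the 9 genes. The summits were 18 bp apart. Scaled to library size, the LNCaP-to-VCaP ratio of pileup was similar, 3.51 in NCAPG and 3.39 in NCAPG2. The same ratio for tags in the 10 kb around the peak was 1.91 in NCAPG and 3.31 in NCAPG2. The pileup of NCAPG2 was 1.65 times that of NCAPG in VCaP (exact interval of the ratio 1.03 to 2.66) and 1.59 times in LNCaP (1.08 to 2.35). RefSeq (GRCh38.p14) places the start of DCAF16, on the opposite strand, 222 bp from that of NCAPG, so the peak cannot be told apart between these genes.

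The other condensin I genes had weaker peaks. NCAPH, the kleisin of condensin I, had 11 tags (5.49 to 19.7) and a fold enrichment of 5.42 in VCaP (chr2:97001327-97001624). In LNCaP (chr2:97001278-97001996) it had 13 tags (6.92 to 22.2) and 5.31. NCAPH was the only gene whose fold enrichment was lower in LNCaP than in VCaP, and its LNCaP fold lay below the list's median of 6.00.

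NCAPD2, which binds the kleisin NCAPH, had the lowest VCaP fold enrichment and 2 LNCaP peaks. The VCaP peak (chr12:6602956-6603223) had 14 tags and a fold of 4.29, rank 8611 of 9423. The LNCaP peak at the same place (chr12:6602827-6603272) had 13 tags and a fold of 5.07, with the summits 16 bp apart. The second LNCaP peak (chr12:6602243-6602663) was stronger, with 20 tags and a fold of 7.89, and had no VCaP counterpart. Its summit lay 815 bp upstream of the NCAPD2 start. RefSeq (GRCh38.p14) has the start of MRPL51, a mitochondrial ribosomal protein gene on the opposite strand, 840 bp upstream of the NCAPD2 start. Which of these genes the second peak belongs to cannot be told apart.

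The shared ATPases SMC2 and SMC4 had moderate peaks that were higher in LNCaP. SMC2 had 14 tags and a fold of 6.15 in VCaP (chr9:106856241-106856648), and 23 tags and 10.1 in LNCaP (chr9:106856030-106856859). The summits lay on opposite sides of the start, 107 bp upstream in VCaP and 179 bp downstream in LNCaP, the widest gap among the genes at 286 bp. RefSeq gives SMC2 a second start 318 bp past the first. SMC4 had 1 VCaP peak of 616 bp (chr3:160116966-160117581) with 16 tags and a fold of 5.75. The LNCaP list had a pair of peaks under the same stretch, with 23 tags and a fold of 8.13 (chr3:160116908-160117294) and 21 tags and 7.45 (chr3:160117412-160117772). The VCaP peak overlapped both. IFT80, an intraflagellar transport gene on the opposite strand, has its RefSeq start 425 bp upstream of the first SMC4 start. The VCaP summit lay 230 bp upstream of the SMC4 start, and that of the stronger LNCaP peak 329 bp upstream. These peaks therefore cannot be told apart between SMC4 and IFT80.

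Among cohesin genes, SMC3 had a peak in both libraries. The VCaP peak (chr10:112326978-112327458) had 16 tags and a fold of 5.30, and the LNCaP peak (chr10:112326997-112328289) had 25 tags and 7.85. The LNCaP peak was 1293 bp long, rank 48 of 21994 by length, against 481 bp in VCaP. Its summit was 198 bp upstream of the start, while its interval ran on past the start into the gene. RefSeq (GRCh38.p14) has the start of LOC105378483, on the opposite strand, 387 bp upstream of the SMC3 start, so the peaks cannot be told apart between these genes.

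RAD21 and ESCO2 had Rb peaks in the LNCaP list alone. ESCO2 (chr8:27631773-27632297) had 33 tags (22.7 to 46.3) and a fold of 11.9 in LNCaP, rank 668 of 21994, with the summit 53 bp upstream of the start. RAD21 had 2 LNCaP peaks of 12 tags each (6.20 to 21.0). One had a fold of 6.96 (chr8:117886962-117887213) and covered the start, and the other had 6.87 (chr8:117886281-117886718) and lay 486 bp inside the gene. Starts of neighbouring genes were not searched for around RAD21 and ESCO2, which had no matched RefSeq window. The nearest VCaP summits were 63.4 kb from ESCO2 and 63.6 kb from RAD21. ESCO2 is thus among the stronger LNCaP sites that the VCaP list lacks. Of the 670 LNCaP peaks with at least its fold enrichment, 88.1% were overlapped by a VCaP peak. Of the 1050 LNCaP peaks with 12 tags at the summit, as at RAD21, 22.8% were. These shares rest on different measures, fold enrichment for ESCO2 and pileup for RAD21, and cannot be compared between the genes.

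The regions around these genes differed too. Within 5 Mb of ESCO2 there were 13 VCaP and 95 LNCaP peaks, a ratio of 7.31, the highest of the 9 regions. The ratio of the whole lists was 2.33. Around RAD21 there were 22 VCaP and 41 LNCaP peaks, or 1.86 times as many. The median number of tags in the 10 kb windows of the peaks in the ESCO2 region, per 1000000 library tags, was 4.72 for VCaP and 12.5 for LNCaP. Around RAD21 the order was opposite, with 10.0 for VCaP and 5.99 for LNCaP. Over the whole lists the medians were 7.82 for VCaP and 13.9 for LNCaP, so the order around ESCO2 was that of the lists. The part of these regional values in the absence of VCaP peaks was not tested. The lowest pileup of any VCaP peak was 6 tags, and a gene without a listed peak is not shown to lack Rb.

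**Figure D2:**
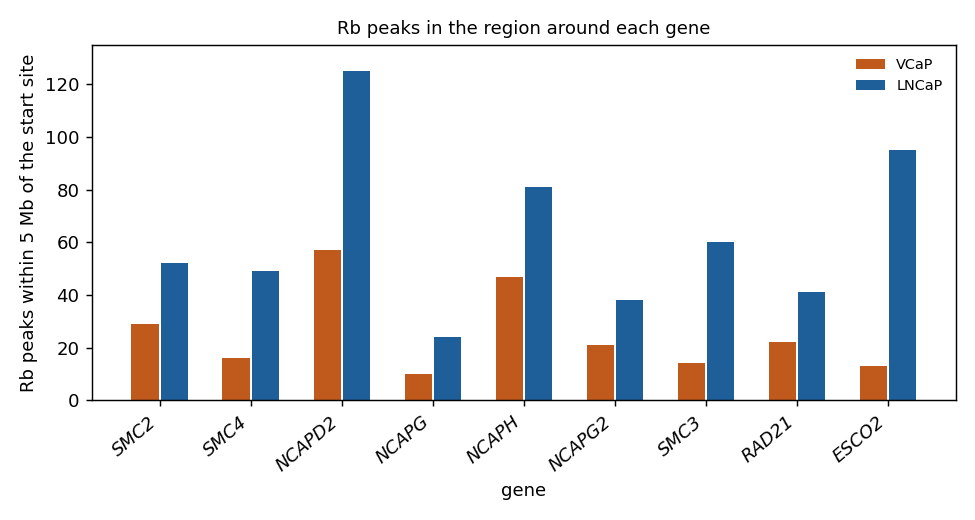
Number of Rb peaks within 5 Mb of each start site in VCaP (orange bars) and LNCaP (blue bars), 1 library each. The ESCO2 region has 13 and 95 peaks, and the SMC3 region, next by ratio, 14 and 60.

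Where both libraries had a peak, the peaks overlapped. All 7 VCaP peaks of these genes were overlapped by a LNCaP peak, against 71.2% of the VCaP list on chromosomes 1 to 22 and X. From the other side, 8 of the 12 LNCaP peaks were overlapped by a VCaP peak, against 30.2% of the LNCaP list. The 4 without a counterpart were the upstream NCAPD2 peak, both RAD21 peaks and the ESCO2 peak. The summits of the 7 genes' pairs, taking the overlapping LNCaP peak of highest fold, were between 16 and 286 bp apart, with a median of 68 bp against 73 bp over all 6688 overlapping pairs. Under a stricter demand, that the shared stretch make up 50% or more of both peaks, 4 genes had such a pair. The shared stretch was 49.2% of the LNCaP peak in SMC2, 41.4% in NCAPH and 35.7% in SMC3.

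The fold enrichment of these pairs was higher in LNCaP in 6 of 7 genes, all but NCAPH, which is close to the background of 80.8% of all overlapping pairs. The ratio of LNCaP to VCaP fold ran from 0.979 in NCAPH to 1.64 in SMC2, with a median of 1.41, against 1.32 over all pairs (quartiles 1.07 and 1.62). It was 1.05 in NCAPG2, 1.18 in NCAPD2, 1.41 in SMC4, 1.48 in SMC3 and 1.62 in NCAPG. Each fold is relative to its own library's surroundings, without a control.

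**Figure D3:**
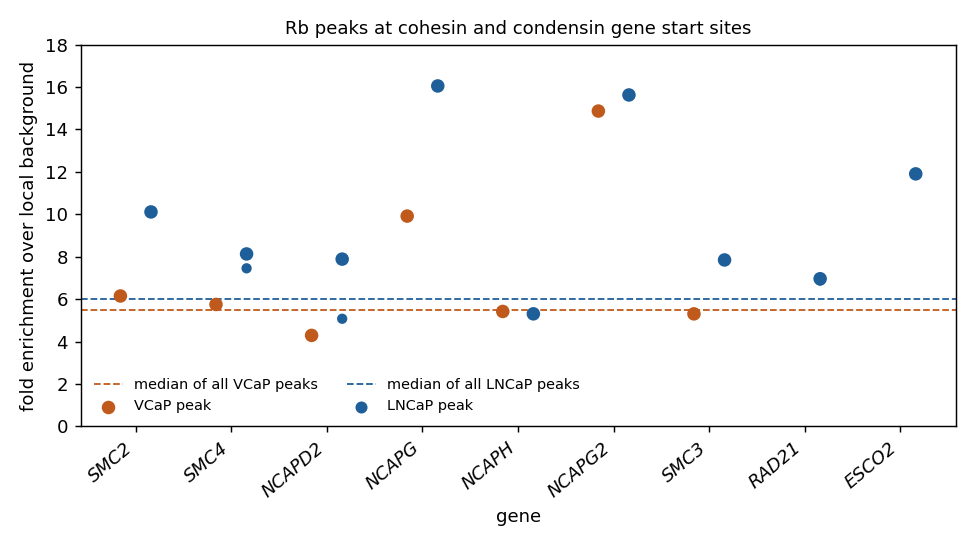
Fold enrichment over the local background for each Rb peak of the 9 genes in VCaP (orange) and LNCaP (blue); small points are the weaker of 2 peaks of a gene, and dashed lines are the medians of the whole lists, 5.51 and 6.00. NCAPG2 is high in both libraries, with 14.9 and 15.6.

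Scaled to library size, the summits were higher in LNCaP in all 7 genes, as were those of 98.7% of all overlapping pairs. Per 1000000 tags, NCAPG2 had 5.87 in VCaP and 19.9 in LNCaP, and NCAPG had 3.57 and 12.5. SMC3 had 1.84 and 6.81, SMC4 had 1.84 and 6.26, and SMC2 had 1.61 and 6.26. NCAPH had 1.27 and 3.54, and the overlapping NCAPD2 peaks had 1.61 and 3.54. The groups of values overlapped between the lines: VCaP NCAPG2 was above LNCaP NCAPH. The LNCaP-to-VCaP ratio ran from 2.20 in NCAPD2 (exact interval 0.951 to 5.04) to 3.89 in SMC2 (1.92 to 8.17), and the interval lay above 1 in 6 of 7 genes. The median ratio over all 6688 pairs was 3.35 (quartiles 2.51 and 4.37), and it lay inside the interval of each of the 7 genes. The libraries had 8691938 tags in VCaP and 3671482 in LNCaP, and intervals of these ratios compare the libraries, not the lines.

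**Figure D4:**
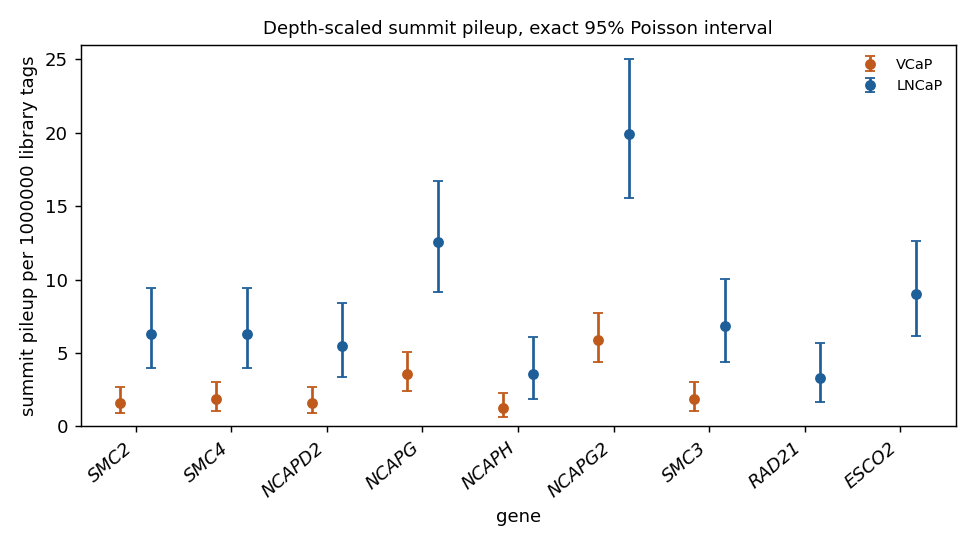
Summit pileup per 1000000 library tags at the peak of highest fold enrichment of each gene, with exact 95% Poisson intervals that cover counting error only, for VCaP (orange) and LNCaP (blue). NCAPG2 has 5.87 in VCaP and 19.9 in LNCaP, and every gene with a peak in both is higher in LNCaP. For NCAPD2 the LNCaP value, 5.45, is that of the upstream peak, which does not overlap the VCaP peak. The overlapping LNCaP peak has 3.54.

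The order of the genes was only partly resolved by the tag numbers. Taking each gene's peak of highest fold, the order of pileup in VCaP was NCAPG2, NCAPG, then SMC3 and SMC4 with 16 tags each, NCAPD2 and SMC2 with 14 each, and NCAPH with 11. NCAPG exceeded SMC3 by a ratio of 1.94 (1.03 to 3.79), and the neighbours below SMC3 did not differ beyond counting error. In LNCaP the order was NCAPG2, NCAPG, ESCO2, SMC3, SMC2 and SMC4 with 23 each, NCAPD2, NCAPH and RAD21. There, of the neighbours in the order, only NCAPG2 and NCAPG had an interval of the ratio that left out 1.

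Some of the genes' peaks were among the strongly enriched ones of each list. In LNCaP 4 of the 12 peaks (NCAPG, NCAPG2, ESCO2 and SMC2) had a fold enrichment of at least 10, against 8.01% of the list. In VCaP 1 of the 7 (NCAPG2) did, against 3.33%. Whether these shares differ between the libraries was not tested. The best peak of 8 of 9 genes exceeded the list's median fold in LNCaP, and that of 4 of 7 genes did in VCaP. In LNCaP this took the higher of 2 peaks for SMC4, NCAPD2 and RAD21, while each VCaP gene had 1 peak. For NCAPD2 the higher was the upstream peak with 7.89. Its LNCaP peak that overlapped the VCaP peak had 5.07, below the list's median. The median over the genes was 8.13 in LNCaP and 5.75 in VCaP, against list medians of 6.00 and 5.51. The genes' peaks had a median length of 485.5 bp in LNCaP and 443 bp in VCaP, against 395 and 313 bp over the lists. The part of all annotated start sites that carry a peak was not analysed here, because no annotation on hg19 was used.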

How the data were processed

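Rb chromatin immunoprecipitation sequencing (ChIP-seq) gave 1 library each of VCaP and LNCaP, assigned by its cell line label. Peak calling by the authors used, per the file headers, MACS 2.1.0.20140616 on each library alone, without a control, at a q-value limit of 0.05, keeping 1 tag per position. The submitters' processing notes name hg19 as the build, with MACS2 and HOMER as tools; the aligner is not given in the sources used here. The deposited pileup is an unscaled coverage signal, the deposited fold enrichment a ratio to the local background of the same library, and the deposited significance −log10 p and −log10 q. These scores are the authors' and describe peaks within a list. The deposited summit files repeated the peak tables in all rows.

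Peaks were assigned to genes by summit within 3 kb of the start site, overlaps needed 1 bp, and where a gene had 2 peaks the one of higher fold enrichment was taken unless stated. The tags in 10 kb around a peak were computed back as (pileup + 1) / fold − 1, scaled by the fragment length (225 bp in VCaP, 241 bp in LNCaP). Intervals are exact (Poisson, or Clopper-Pearson for ratios) and cover counting error only. With 1 library per line no test between lines was made. All 9 genes of the list were named. The genes and lists were chosen with earlier results of these data known; the counts within 5 Mb and the 7-letter E2F search were added after seeing the data. Other cohesin and condensin genes were to be counted only with hg19 start sites, and were not analysed here. Promoter sequence came from RefSeq (GRCh38.p14). The overlap and interval code was tested on simulated data. Python 3.11.15, scipy 1.17.1 and pandas 2.3.3 were used.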

Additional observations from a re-analysis of the deposited data

How the results depend on the processing

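The number of genes with overlapping peaks moved most among the counts and fell from 7 to 4 when the shared stretch had to be 50% or more of both peaks. With summits within 200 bp it was 6, without SMC2. Limits of 1, 5 or 10 kb, or any part of the peak within 3 kb, left 7 genes in VCaP and 9 in LNCaP. With −log10 q of at least 5, VCaP had 5 genes, without NCAPD2 and NCAPH, and LNCaP 9. With a fold enrichment of at least 5, VCaP had 6, without NCAPD2. With the LNCaP list cut to 9423 peaks, by fold or by −log10 q, LNCaP had 8, without NCAPH. NCAPD2 stayed only through its upstream peak. Its LNCaP peak that overlaps the VCaP peak has a fold of 5.07, below the lowest fold kept, 6.33. That peak's −log10 q of 5.24 is below the 5.59 of the NCAPH peak. The number of genes with overlapping peaks was not counted with the cut list. Taking the peak nearest the start changed the LNCaP fold of NCAPD2 from 7.89 to 5.07, by more than 1.5 times, and the LNCaP median from 8.13 to 7.85. It could not change the VCaP values, where each gene has 1 peak, nor could cutting the LNCaP list. No paired analysis was possible because each line has 1 library. The weakest peaks rest on 11 to 14 tags, which limits how finely the genes can be ordered.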

Other observations

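The distance from the start sites to the next peak beyond 3 kb varied between the genes. Within 3 kb, SMC4, NCAPD2 and RAD21 had 2 LNCaP peaks each. The spacing of peaks over the whole lists was not analysed, so these distances do not show whether the genes' peaks were isolated. In VCaP the next peak beyond 3 kb was between 23.5 kb (NCAPD2) and 292 kb (SMC2) away for the 7 genes with a peak. In LNCaP it was between 6.04 kb (NCAPG) and 106 kb (SMC2) away. The LNCaP peak at 6.04 kb lay downstream of the NCAPG start in the direction of transcription, with a pileup of 7 tags and a fold of 5.58, and VCaP had no peak there. Around NCAPG both lists were sparse, with 10 VCaP and 24 LNCaP peaks within 5 Mb, the fewest of the 9 regions in both. The densest were around NCAPD2, with 57 and 125.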
